A study of Mus musculus with 12 samples.

Results

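The comparison set testes in which Sertoli cells had lost both copies of Rb1 against testes in which they had lost 1 copy. Of the 12 arrays of the series, the 7 titled SC-RbKO (4 arrays, KO 1 to KO 4) and SC-Rb+/- (3 arrays, HET 5 to HET 7) were chosen by title, and the 5 wild type arrays (WT 8 to WT 12) are given beside them. Every sample was total RNA of whole testis from mice aged 10 days, hybridised to Illumina MouseWG-6 v2 BeadChips, arrays whose beads carry gene-specific oligonucleotide probes. KO mice came from crosses of Amh-Cre males, whose Cre recombinase is driven by the anti-Müllerian hormone promoter in Sertoli cells, with females carrying floxed Rb. SC-Rb+/- is read here as loss of 1 copy in the same cells, since the protocol describes the KO mice and leaves the other genotypes of the cross unspecified. Cre acts in Sertoli cells, so germ cells, Leydig cells and the other cells of these testes keep Rb1 in all 3 groups. No label says that the RNAs came from separate mice or litters, so p-values measure only the spread between these samples, and the number of arrays limits their precision.

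Rb1 encodes the retinoblastoma protein, which binds E2F transcription factors and holds back genes needed for DNA replication until cyclin-dependent kinases phosphorylate it. Sertoli cells are the somatic nurse cells of the seminiferous tubule. They divide in fetal and early postnatal life and stop dividing as they mature, while germ cells around them enter meiosis. In whole testis, fewer cells of a type and less RNA per cell cannot be told apart.

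The HET arrays were unlike each other. Median bead intensity lay between 52.2 and 60.2 on the 12 arrays and 39.3 to 43.7% of probes were detected. The SD of a gene's log2 distance from the median array was 0.44 on HET 6 and 0.37 on HET 7, against 0.19 on HET 5, 0.17 to 0.21 on the KO arrays and 0.30 on WT 12. Pearson's r across genes, which are not independent replicates, was 0.9903 to 0.9935 between KO arrays and 0.9635 to 0.9798 between HET arrays. The column names of the table carry numbers, which were split here into the lower 6 and the upper 6, with no gap in the numbers at that border, and each set holds KO, HET and WT arrays. A probe of the gene Eif2s3y was detected on all 6 arrays of the lower set and on no array of the upper set. The cause was not tested. No source used here says what the numbers mean, so the sets served only as a block. HET 6 and HET 7 lie in different sets.

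Gene families of the basic cell machinery set HET 6 apart. The families below were defined by symbol pattern after the values had been seen, and are a description. For 41 subunits of mitochondrial complex I, the respiratory chain's NADH dehydrogenase, the mean level relative to the WT mean was -0.86 on HET 6, -0.12 on HET 7 and between -0.06 and 0.01 on HET 5 and the KO arrays. For 72 proteins of the mitochondrial ribosome it was -0.63 on HET 6 and between -0.07 and 0.02 on the other 6 arrays. HET 6 was thus the one low array for both families. Cytosolic ribosomal proteins (56 genes) were at -0.59 on HET 6 and -0.21 on HET 7, and the 7 measured subunits of RNA polymerase II at -0.73 and -0.14. The 6 measured subunits of the CCT chaperonin, which folds actin and tubulin, lay the other way, at 0.28 on HET 6, 0.26 on HET 7 and 0.18 on WT 12, with KO arrays from -0.07 to -0.01. With all arrays, 39 of 41 complex I genes and 61 of 72 mitochondrial ribosomal genes had a higher mean in KO than in HET. Without HET 6 the counts were 26 of 41 and 38 of 72, with medians of 0.04 and 0.01. For the E2F, piRNA and spermatogonial lists, counts of members by direction are also given below without HET 6 and without HET 7. Other counts rest on all arrays, and where a list's majority turned with KO against HET 5 alone, that count stands beside them.

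**Figure D1:**
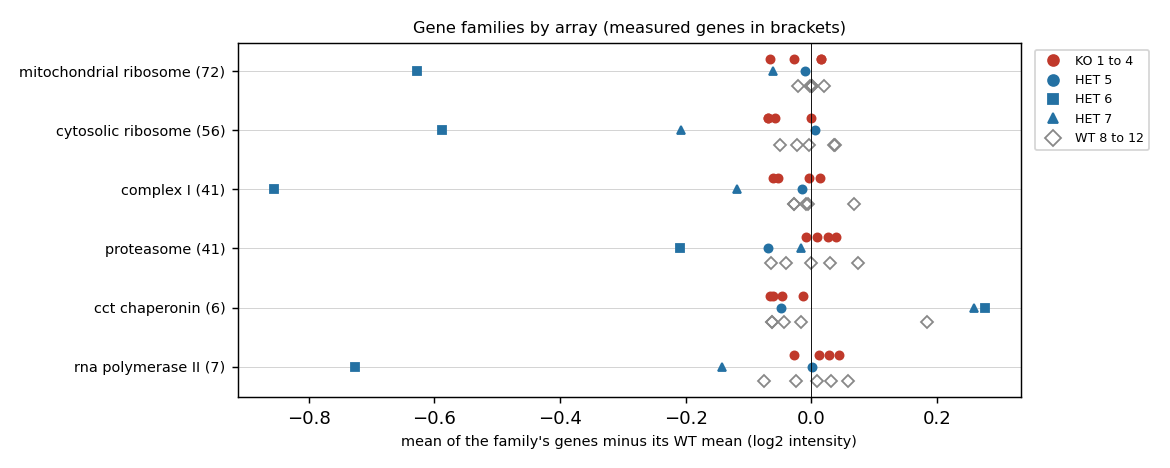
Mean log2 intensity of the measured genes of 6 gene families on each array, relative to the family's mean over the 5 WT arrays. Red circles are KO arrays, blue symbols the 3 HET arrays (circle HET 5, square HET 6, triangle HET 7) and open grey diamonds the WT arrays. HET 6 lies far to the left for complex I (-0.86), RNA polymerase II, both ribosomes and, by less, the proteasome, while KO, WT and HET 5 arrays lie near 0.

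Rb1 itself did not separate KO from HET. Its brighter probe read 9.26, 8.65, 8.74 and 8.61 on KO 1 to KO 4, 8.78, 9.15 and 9.19 on HET 5 to HET 7 and 8.83 to 9.31 on the WT arrays, in log2 normalized intensity. KO 1 was the brightest of the 7 KO and HET arrays, and the groups overlap. KO minus HET was -0.22 (SE 0.17, limma adjusted p = 0.711), and 0.03 against HET 5 alone. The dimmer Rb1 probe read 7.74, 7.33, 7.11 and 7.15 on the KO arrays, 7.31, 7.40 and 7.44 on the HET arrays and 7.63 to 8.15 on the WT arrays. KO and HET again overlap on it, with a difference of -0.05 (limma adjusted p = 0.929). All HET arrays, and all KO arrays but KO 1, lay below all WT arrays on this probe. Whether either probe lies in the floxed stretch is not given, so neither checks the deletion. Other testis cells also keep the gene.

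Across 11076 detected genes, none passed a limma adjusted p under 0.05 between KO and HET (0% called). The smallest adjusted p was 0.657, shared by many genes. At an unadjusted p under 0.05, 775 genes differed (7.00% of those tested), 507 higher in KO (4.58%) and 268 lower (2.42%). KO and HET arrays did not overlap for 580 genes (5.24%), of which 324 were higher in KO (2.93%) and 256 lower (2.31%). The mean was higher in KO for 5866 genes (53.0%), and the median difference over all genes was 0.01. The single genes below are therefore described by their values on each array, and every named gene has a limma adjusted p of at least 0.657. Leaving out HET 5 gave 58 genes past the adjusted p, 47 higher and 11 lower in KO, all with the direction they have on all arrays. That fit rests on HET 6 and HET 7, which with the KO arrays are also in the fit on all arrays, so the shared direction is no separate support. Leaving out any other single KO or HET array gave 0. Without HET 6 the unadjusted counts were 328 higher and 201 lower, without HET 7 they were 713 and 424, and against HET 5 alone 118 and 149.

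The mean of the wild type arrays lay nearer the KO mean than the HET mean for most genes. The WT mean was closer to the KO mean than to the HET mean for 7384 of all 11076 genes (66.7%) and for 421 of the 580 genes whose KO and HET arrays do not overlap (72.6%). The HET mean lay between the KO and WT means, the order of copy number, for 25 of the 580 genes (4.3%) against 2194 of all genes (19.8%). These shares use the HET arrays that chose the 580 genes and are a description. The HET mean rests on 3 arrays, of which HET 6 and HET 7 had the widest spread about the median array (SD 0.44 and 0.37). Pearson's r with WT arrays had a median of 0.9913 for KO and 0.9809 for HET, and a highest value of 0.9931 and 0.9938. The part of the array number and spread in these shares was not tested. All 4 KO arrays lay above all 8 HET and WT arrays for 21 genes (0.190%) and below them for 10 (0.0903%). Among these were Diaph3, Ech1, Mrps12, Tnni2, Pold2 and Pola2, which were above, and Piwil2 and Cd3d, which were below. Cd3d was detected on 0 KO, 2 HET and 1 WT arrays, so its order against WT is mostly one of background readings.

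E2F target and DNA replication genes had a higher mean in KO than in HET for 37 of 42 measured members, with a median of 0.13 against 0.01 over all genes. Of the 42, 8 were higher in KO at an unadjusted p under 0.05 (4.58% over all genes) and 0 lower, and 6 did not overlap between the groups (2.93% over all genes): Pold2, Tyms, Cdc6, Pola2, Mcm7 and Ung. None passed the adjusted p. Promoters of the 2 genes among these 6 with an E2F-type motif in the 250 bases before the gene's start are shown because the list is defined by control through E2F. The motifs searched, on both strands, were TTTGGCGC, TTTCCCGC, TTTCGCGC and TTTGCCGC, which do not overlap within the matches shown, and capitals mark the match. Sequences are from RefSeq, build GRCm38.p6, 5′ to 3′ on the gene's strand, and the last base lies just before the gene's start.
Cdc6, chr11:98907901-98908150, plus strand: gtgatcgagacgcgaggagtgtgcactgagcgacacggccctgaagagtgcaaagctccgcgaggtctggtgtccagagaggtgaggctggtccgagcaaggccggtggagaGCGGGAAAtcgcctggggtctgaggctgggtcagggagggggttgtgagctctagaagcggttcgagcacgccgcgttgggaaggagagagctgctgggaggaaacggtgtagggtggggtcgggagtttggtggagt
Mcm7, chr5:138171884-138172133, minus strand: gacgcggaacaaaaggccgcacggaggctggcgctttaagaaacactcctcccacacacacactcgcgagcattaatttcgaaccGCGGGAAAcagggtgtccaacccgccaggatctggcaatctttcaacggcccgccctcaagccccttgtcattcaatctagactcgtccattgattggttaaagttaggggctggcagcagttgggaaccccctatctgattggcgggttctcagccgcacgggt
Both matches are GCGGGAAA, which reads TTTCCCGC on the other strand. They begin 138 bases before the start of Cdc6 and 165 bases before that of Mcm7, a gene with 1 further start whose window holds no match. Of 32851 RefSeq windows of this length, 611 (1.9%) hold at least 1 of the 4 motifs. Among measured genes with a promoter the count was 358 of 8932 (4.0%), among E2F targets 10 of 35 (28.6%) and among G2 and mitosis genes 1 of 19. A match is a description of the letters and does not show binding.

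Of the polymerase genes, Pold2, which encodes a subunit of the replicative DNA polymerase delta, read 10.07, 10.23, 10.04 and 10.05 on KO 1 to KO 4 and 9.89, 9.48 and 9.84 on HET 5 to HET 7. Every KO array was above every HET and WT array, the WT range being 9.80 to 9.95. KO minus HET was 0.36 (SE 0.11). Pola2, a subunit of the DNA polymerase alpha and primase complex that starts each new strand, read 8.39, 8.56, 8.41 and 8.47 in KO, 8.35, 8.19 and 8.01 in HET and 7.99 to 8.35 in WT. KO 1 and HET 5 were close, while KO 2 stood highest, and the difference was 0.27 (SE 0.11).

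Tyms, which encodes thymidylate synthase, the enzyme that makes the DNA precursor dTMP, read 9.48, 9.79, 9.69 and 9.56 in KO and 9.41, 9.13 and 9.12 in HET. The WT range of 9.12 to 9.55 covered both groups in part. The difference was 0.41 (SE 0.12). Cdc6 and Mcm7 belong to origin licensing, in which Cdc6 helps load the MCM helicase onto DNA. Cdc6 read 6.72, 6.78, 6.63 and 6.58 in KO and 6.43, 6.48 and 6.30 in HET, a difference of 0.27 (SE 0.10), with WT from 6.48 to 6.84. Mcm7 read 8.28, 8.48, 8.45 and 8.34 in KO and 8.20, 8.15 and 8.22 in HET, a difference of 0.20 (SE 0.08), with WT from 8.21 to 8.33. KO and WT ranges overlapped for both. Ung, the uracil DNA glycosylase of base excision repair, was 0.23 apart (SE 0.10).

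The list mean of the 42 genes, relative to WT, was 0.06, 0.17, 0.14 and 0.05 on KO 1 to KO 4 and 0.05, -0.06 and -0.06 on HET 5 to HET 7. KO 1 and KO 4 thus lay at the level of HET 5, KO 1 just above it and KO 4 just below, while KO 2 and KO 3 lay clearly above all HET arrays. The WT arrays ran from -0.06 to 0.09, and the highest, WT 8, lay above KO 1 and KO 4. Members with a higher KO mean numbered 30 of 42 without HET 6, 32 of 42 without HET 7 and 25 of 42 against HET 5 alone, with medians of 0.14, 0.09 and 0.04. With the column-number set as a block they numbered 36 of 42 with a median of 0.13. Within the lower set the difference of the list mean was 0.11 and within the upper set 0.16.

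**Figure D2:**
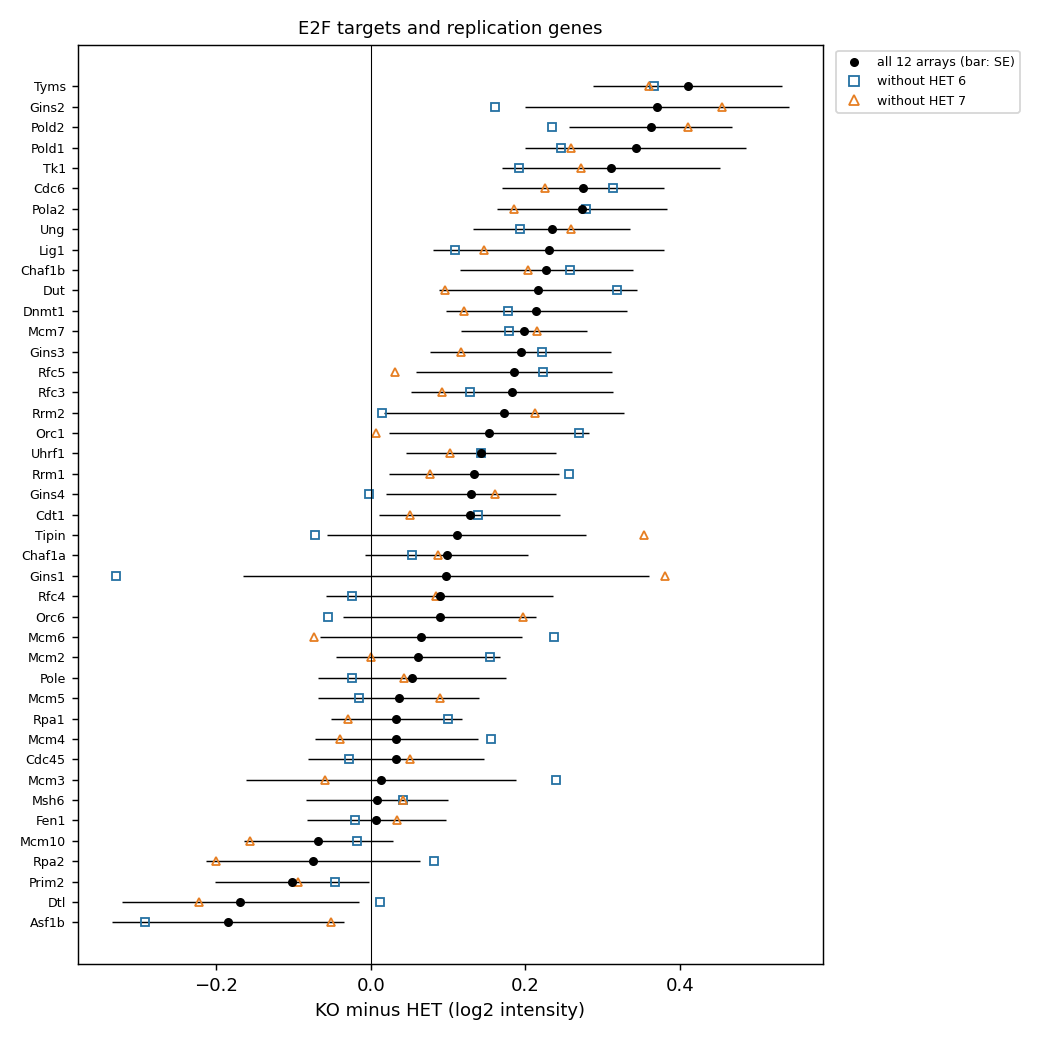
KO minus HET difference in log2 intensity for the 42 measured E2F target and replication genes, one row per gene, with all 12 arrays in the fit (black circles, bars are 1 SE), without HET 6 (open squares) and without HET 7 (open triangles). With all arrays 37 of the 42 lie to the right of 0, and Gins1, Gins2 and Tipin are among the genes that move most when 1 HET array is left out.

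The regulators upstream of these genes showed no common direction. Of 16 measured members of the Rb and E2F network, 6 had a higher mean in KO (53.0% over all genes), or 12 of 16 against HET 5 alone, the median was -0.09, and 0 were separated. E2f1, the activating E2F family member, read 9.49, 9.89, 9.90 and 9.85 in KO and 9.49, 9.30 and 9.68 in HET. KO 2 to KO 4 stood above every HET array and above the WT range of 9.36 to 9.67, while KO 1 lay at the level of HET 5. The difference was 0.29 (SE 0.13). Rbbp7, which encodes a histone-binding partner of the retinoblastoma protein, was -0.46 (SE 0.28) and 0.05 against HET 5 alone, and another of its probes had the opposite sign. Of 16 G1 cyclins, kinases and inhibitors, 8 had a higher mean and 0 were separated. Among them Skp2, the F-box protein that targets p27 for breakdown, differed by 0.27 (SE 0.13) and Cdkn1b, which encodes p27, by -0.23 (SE 0.12). Cdkn1b was detected on 1 KO, 3 HET and 1 WT arrays, so it passed the detection filter only with the HET arrays. Its difference follows in part from that selection, rests mostly on background readings in KO and is a description. Ccnd2, a D-type cyclin, differed by -0.37 (SE 0.21), with 1 probe of opposite sign.

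Genes of G2 and mitosis did not follow the replication genes. Of 22 measured, 6 had a higher mean in KO, the median was -0.06, and 0 passed an unadjusted p under 0.05 in either direction. Prc1, which bundles microtubules in the central spindle, differed by -0.24 (SE 0.12), and Plk1, the mitotic kinase, by 0.22 (SE 0.12). Of 15 checkpoint and repair genes 7 had a higher mean, or 9 against HET 5 alone, and the leading members were Chek1, a checkpoint kinase, at 0.29 and Topbp1, a replication stress adaptor, at 0.46, whose KO and HET arrays overlap. In the p53 and apoptosis list 11 of 21 had a higher mean. There Gadd45a, a growth arrest gene, read 9.97, 9.96, 9.96 and 9.99 in KO and 9.88, 9.58 and 9.64 in HET, a difference of 0.27 (SE 0.10). Its KO values spanned a narrow range inside the WT range of 9.71 to 10.03.

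Germ cell genes of the piRNA and pan-germline list lay lower in KO than in HET for 17 of 22 measured members, with a median of -0.22. Piwi-interacting RNAs are small RNAs that silence transposons in germ cells, and the list holds their pathway and general germ cell genes. Of the 22, 6 were lower at an unadjusted p under 0.05 (2.42% over all genes), namely Ddx4, Piwil2, Tdrd5, Rnf17, Dppa4 and Asz1, and Tex11 was higher. The arrays did not overlap for 4 that were lower (2.31% over all genes) and 1 that was higher. The list mean relative to WT was -0.11, -0.18, -0.15 and -0.17 on the KO arrays and 0.01, -0.10 and 0.34 on the HET arrays. Every KO array was below every HET array, although KO 1 and HET 6 were close, and WT 12 was high like HET 7, at 0.28. The order of KO 1 and HET 6 rests on Piwil2, which read 9.55 and 10.61 on them and lies within 10 Mb of Rb1. Lower members numbered 20 of 22 without HET 6 and 13 of 21 without HET 7, with medians of -0.29 and -0.13.

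Piwil2, the mouse Piwi protein MILI, read 9.55, 9.61, 9.63 and 9.62 on KO 1 to KO 4 and 10.51, 10.61 and 11.26 on HET 5 to HET 7. The WT arrays read 9.75, 9.76, 9.64, 10.39 and 11.49 on WT 8 to WT 12. KO arrays were nearly equal, all HET arrays were higher, and the WT arrays fell at both levels. KO minus HET was -1.19 (SE 0.36, limma adjusted p = 0.657). Ddx4, the germ cell RNA helicase also called mouse vasa homologue, read 6.95, 7.04, 7.42 and 7.25 in KO and 7.40, 8.23 and 8.09 in HET. HET 6 and HET 7 were above all KO arrays and HET 5 lay among them, with WT from 7.07 to 7.69. The difference was -0.75 (SE 0.20). Tdrd5, a Tudor-domain protein of the piRNA pathway, differed by -0.48 (SE 0.17) without overlap, and Rnf17, another Tudor-domain protein, by -0.50 (SE 0.19) with overlap.

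Spermatogonial genes were lower in KO for 17 of 26 measured, with a median of -0.05, and 3 did not overlap (2.31% lower over all genes). At an unadjusted p under 0.05, 2 were lower (2.42% over all genes) and 1, Cdh1, was higher (4.58%). Cdh1 differed by 0.22 (SE 0.10) with overlap and was detected on 2 KO, 1 HET and 5 WT arrays. The list mean relative to WT was 0.07, -0.04, -0.04 and -0.06 on the KO arrays. On HET 5 to HET 7 it was 0.13, 0.13 and -0.04, so the groups overlap. Id4, which marks spermatogonial stem cells, read 5.31, 5.39, 5.40 and 5.60 in KO and 5.63, 6.11 and 6.36 in HET. KO 4 and HET 5 were close, HET 6 and HET 7 were clearly higher, and WT ran from 5.32 to 5.79. The difference was -0.61 (SE 0.16). Neurog3, a marker of undifferentiated spermatogonia that are set to differentiate, read 7.69, 7.50, 7.64 and 7.63 in KO and 8.08, 8.16 and 7.91 in HET. All HET arrays were higher, and the WT range of 7.64 to 8.08 spanned the gap, with a difference of -0.44 (SE 0.12). Zbtb16, a factor needed for stem cell self-renewal, read 7.16, 7.08, 7.09 and 7.14 in KO and 7.32, 7.46 and 7.29 in HET. The WT arrays, at 6.68 to 7.16, lay with the KO arrays, and the difference was -0.24 (SE 0.11). Lower members numbered 14 of 26 without HET 6, 21 of 26 without HET 7 and 18 of 26 against HET 5 alone, where the median was -0.17.

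Meiotic genes split the HET arrays rather than the genotypes. The mean of 16 meiotic prophase genes relative to WT was -0.07 on HET 5, -0.67 on HET 6 and 0.44 on HET 7, and that of 11 late spermatocyte genes was -0.17, -0.89 and 1.05. KO arrays lay between -0.17 and 0.01 for the first list and between -0.35 and -0.18 for the second, while WT 12 was at 0.47 and 0.88. Syce3, a synaptonemal complex protein, read 11.33, 11.14, 11.04 and 11.14 in KO and 11.32, 9.08 and 11.74 in HET, so that HET 6 was far below and HET 7 above all KO arrays. Hspa2, a heat shock protein of spermatocytes, read 11.78, 11.64, 11.85 and 12.02 in KO and 11.74, 11.55 and 12.98 in HET, and only HET 7 stood out, as did WT 12 at 12.77. Clgn, the chaperone calmegin, reached 10.32 on HET 7 and 10.16 on WT 12 against 8.03 to 8.86 in KO. In each list 1 member separated without overlap (2.93% higher and 2.31% lower over all genes). Syce1, 1 of 16, was higher by 0.31 and Ovol1, 1 of 11, was -0.18 (SE 0.19 and 0.13, limma unadjusted p = 0.126 and 0.173). The part of these array levels in the germ cell differences above was not tested.

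**Figure D3:**
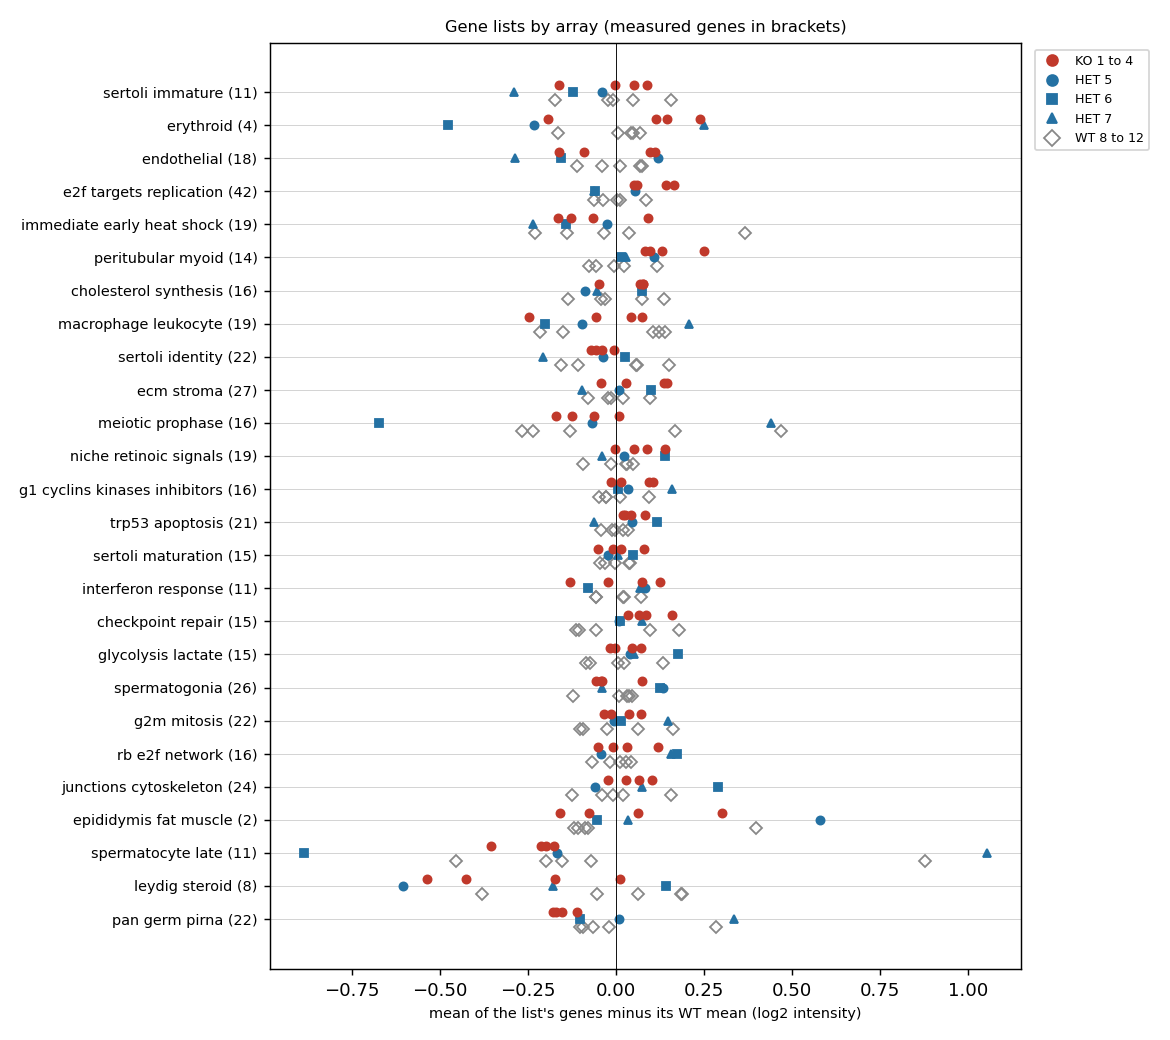
Mean log2 intensity of the measured genes of each of the 26 gene lists on each array, relative to the list's mean over the 5 WT arrays. Red circles are KO arrays, blue symbols the HET arrays (circle HET 5, square HET 6, triangle HET 7) and open grey diamonds the WT arrays. The widest spread within HET is in the late spermatocyte list, from -0.89 on HET 6 to 1.05 on HET 7. In the pan-germline and piRNA list all 4 KO arrays lie left of all HET arrays, but KO 1 and HET 6 nearly touch and their order rests on Piwil2.

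Sertoli cell identity genes, which check the cell type that the Cre targets, were measured for 22 of 29 listed. Of the 22, 14 had a higher mean in KO, with a median of 0.07, and 1 was separated without overlap (5.24% in either direction over all genes). Rhox8, a homeobox gene of Sertoli cells, read 11.97, 12.02, 12.05 and 11.84 in KO and 11.96, 11.74 and 11.59 in HET, and Inha, the inhibin alpha subunit, 12.45, 12.39, 12.53 and 12.50 and 12.37, 12.98 and 12.71. Both were bright on all arrays, and the differences were 0.21 (SE 0.12) and -0.22 (SE 0.13). Drd4, a dopamine receptor gene in this list, read 10.34, 10.67, 10.43 and 10.93 in KO and 10.29, 11.28 and 11.93 in HET, where HET 6 and HET 7 stood above all KO arrays and HET 5 below them. Its difference of -0.58 (SE 0.31) was 0.30 against HET 5 alone.

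Genes of maturing Sertoli cells lay in both directions: of 15 measured, 7 had a higher mean in KO, or 8 against HET 5 alone, and 2 were higher and 2 lower at an unadjusted p under 0.05 (4.58% and 2.42% over all genes). Fabp3, a fatty acid carrier, read 10.20, 10.33, 10.20 and 10.38 in KO and 10.08, 9.77 and 9.40 in HET. KO arrays lay at the WT level of 10.01 to 10.32 and HET 6 and HET 7 below it, a difference of 0.53 (SE 0.14). Cited1, a transcriptional cofactor, showed the same placement, with 10.52, 10.59, 10.62 and 10.54 in KO and 10.52, 9.72 and 9.91 in HET, and overlapped at HET 5. Slc2a3, the glucose transporter GLUT3, read 8.64, 8.58, 8.74 and 8.63 in KO and 8.77, 8.98 and 10.00 in HET, a difference of -0.60 (SE 0.25), most of which came from HET 7. Trf, transferrin, differed by -0.36 (SE 0.15) with overlap.

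Among 11 genes of immature Sertoli cells 7 had a higher mean in KO, the median was 0.22, and 2 did not overlap (2.93% higher over all genes). Lgals1, galectin 1, read 11.48, 11.52, 11.31 and 11.30 in KO and 11.18, 10.39 and 10.91 in HET. The KO arrays lay within the WT range of 10.97 to 11.58, and the difference was 0.57 (SE 0.17). Krt8, a keratin, read 5.86, 5.69, 5.70 and 6.04 in KO and 5.55, 5.66 and 5.60 in HET, a difference of 0.22 (SE 0.11). Against HET 5 alone the list's median was 0.02.

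Cell junction and cytoskeleton genes held the gene with the second smallest p of all named genes. Diaph3, a formin that nucleates and extends actin filaments, read 6.81, 7.16, 7.09 and 7.16 on KO 1 to KO 4 and 6.43, 6.69 and 6.45 on HET 5 to HET 7. All KO arrays lay above all HET arrays and above the WT range of 6.51 to 6.74, and the difference was 0.53 (SE 0.11, limma adjusted p = 0.657). The list as a whole was not higher: 8 of 24 members had a higher mean, or 15 of 23 against HET 5 alone, with a median of -0.12 on all arrays. Nectin3, an adhesion protein of the junctions between Sertoli cells and spermatids, differed by -0.23 (SE 0.11), with 1 probe of opposite sign. In the niche list 11 of 19 had a higher mean, or 9 of 19 against HET 5 alone. There Cyp26b1, the enzyme that breaks down retinoic acid, read 8.47, 8.23, 8.22 and 8.28 in KO and 7.72, 8.22 and 8.07 in HET, separated by a difference of 0.30 (SE 0.14) that leaned on HET 5.

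Beyond the lists, the genes higher in KO with the smallest p-values were led by Tbata, named for its expression in thymus, brain and testis. It read 7.59, 8.03, 8.03 and 7.90 in KO, 7.40, 6.91 and 6.68 in HET and 7.45 to 8.02 in WT. HET arrays were the low ones and the KO and WT ranges overlap, with a difference of 0.89 (SE 0.18, limma adjusted p = 0.657). Prf1, which encodes the pore-forming protein perforin of cytotoxic lymphocytes, read 9.52, 9.71, 9.64 and 9.53 in KO, 9.06, 7.85 and 8.61 in HET and 9.17 to 10.10 in WT. Here too HET was lower than KO and WT, and KO was 2.14-fold HET (SE 0.25 on the log2 scale). Uba6, an enzyme that activates ubiquitin, read 11.19, 11.43, 10.70 and 11.30 in KO and 10.29, 9.82 and 9.81 in HET, 2.27-fold higher (SE 0.29 on the log2 scale). WT 8, at 10.29, lay with the HET arrays and the other WT arrays with KO.

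Ppp1r14a, an inhibitor of myosin phosphatase, read 7.24, 7.69, 7.15 and 7.05 in KO and 6.76, 5.88 and 6.20 in HET, and KO stood 1.00 above HET (SE 0.22). Ech1, an enzyme of fatty acid oxidation, read 12.02, 12.32, 11.94 and 11.91 in KO, 11.64, 11.66 and 11.14 in HET and 11.54 to 11.88 in WT. It was above all HET and WT arrays in every KO array, by 0.57 over HET (SE 0.15). Tnc, the extracellular matrix protein tenascin C, read 6.92, 6.45, 6.13 and 6.62 in KO and 6.03, 5.73 and 5.52 in HET, a difference of 0.77 (SE 0.17). The remaining higher genes chosen by p, Nmral1, Rnf213 and Rexo2, differed by 0.50, 0.45 and 0.47. Mt3, a metallothionein, and Tnni2, a troponin of fast muscle, were among the largest differences without overlap, at 0.95 and 0.69. Tnni2 was lowest on HET 6, at 5.38, while Mt3 was about equally low on HET 6 and HET 7, at 9.64 and 9.65.

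Extracellular matrix genes had a higher mean in KO for 15 of 27 measured (53.0% over all genes), 3 of them without overlap (2.93% over all genes). The collagen gene Col1a1 read 11.76, 11.21, 11.37 and 11.56 in KO and 10.87, 11.18 and 11.18 in HET, a difference of 0.40 (SE 0.16). Col3a1, type III collagen, differed by 0.56 (SE 0.17), with 1 probe of opposite sign, and by 0.04 with the mean of its probes. Timp1, an inhibitor of matrix proteases, differed by 0.39 (SE 0.16), and by 0.15 without HET 6. KO overlapped WT for these genes. Cholesterol synthesis genes had a higher mean in KO for 10 of 16 (53.0% over all genes), and 4 did not overlap, all higher (2.93% over all genes): Mvk and Pmvk, the mevalonate kinases, Fdps, which makes farnesyl diphosphate, and Stard4, a cholesterol carrier. Fdps read 11.54, 11.56, 11.64 and 11.57 in KO and 11.43, 11.27 and 11.39 in HET, and the 4 differed by 0.26, 0.27, 0.22 and 0.32 (SE 0.10, 0.11, 0.10 and 0.13). Leydig cell genes, 8 of 18 listed and measured, held 3 with a higher mean, or 7 of 8 against HET 5 alone, and 0 separated.

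Markers of other cells were measured beside these lists. Hba-a1, an alpha globin of red cells, read 13.73, 13.79, 13.72 and 13.20 in KO and 12.96, 12.16 and 13.63 in HET, lowest on HET 6, with a difference of 0.69 (SE 0.28). Endothelial genes had a higher mean in KO for 13 of 18, or 1 of 18 against HET 5 alone, with list means from -0.16 to 0.11 in KO and from -0.29 to 0.12 in HET. Leukocyte genes had a higher mean for 10 of 19, or 7 of 19 against HET 5 alone, with list means from -0.25 to 0.07 in KO and from -0.20 to 0.21 in HET. The immediate-early and heat shock genes had a higher mean for 14 of 19, or 7 of 19 against HET 5 alone, including Atf3, a stress transcription factor, at 0.64 (SE 0.26). Hspa1b, an inducible heat shock protein, was -0.66 (SE 0.26), and 1 HET array, HET 7, reached 7.04. Peritubular myoid genes had a higher mean for 8 of 14 (6 of 14 against HET 5 alone), interferon response genes for 5 of 11 (6 of 11) and glycolysis genes for 6 of 15. Erythroid genes were measured for 4 of 12 listed, with 3 higher, and genes of epididymis, fat and muscle for 2 of 18, with 1 higher. The part of these markers in the other differences was not tested.

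**Figure D4:**
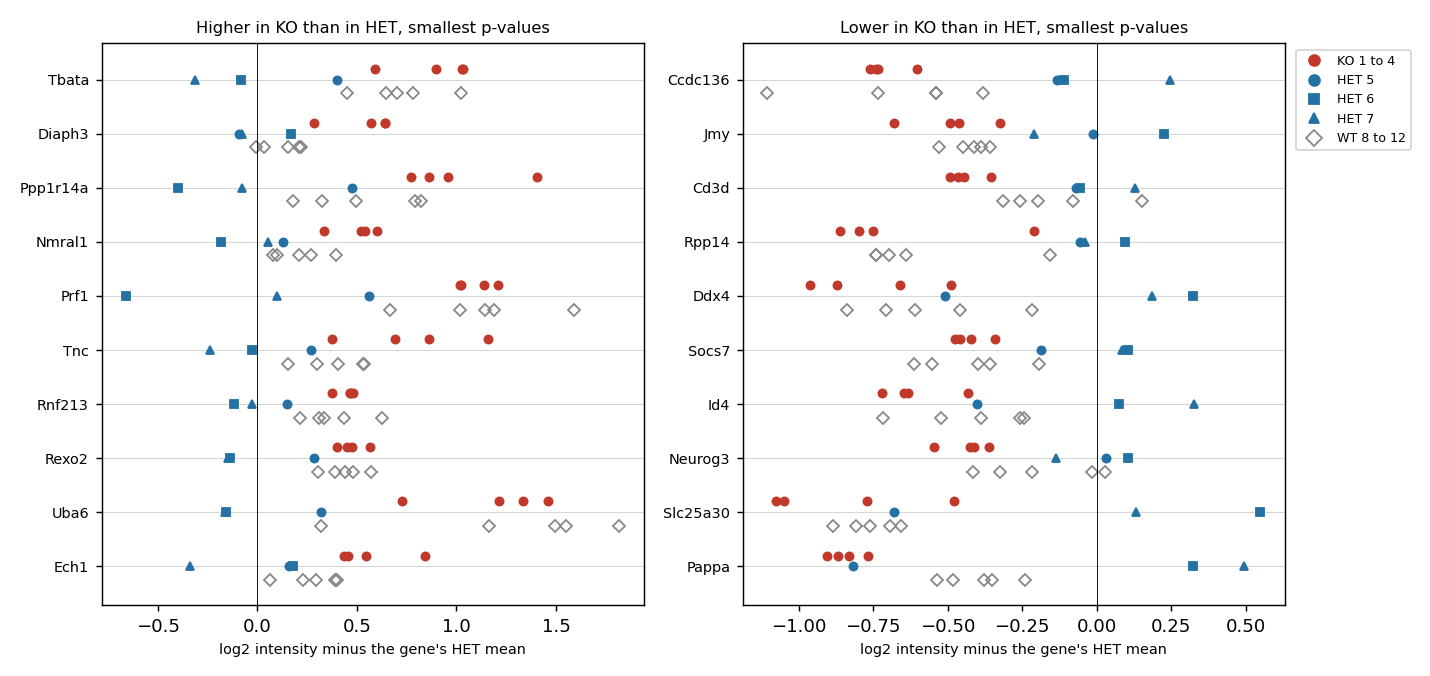
Log2 intensity on each array relative to the gene's HET mean, for the 10 genes higher (left) and 10 lower (right) in KO with the smallest limma p-values. Red circles are KO arrays, blue symbols the HET arrays (circle HET 5, square HET 6, triangle HET 7) and open grey diamonds the WT arrays. KO and HET do not overlap in any gene on the left, HET 5 is the HET array nearest KO in several of them, and for most genes the WT arrays lie near KO.

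Of the genes lower in KO with the smallest p, Ccdc136, a protein needed for acrosome formation in mice, read 6.42, 6.28, 6.26 and 6.29 in KO and 6.88, 6.91 and 7.26 in HET. WT arrays, at 5.91 to 6.64, lay mostly with KO, and the difference was -0.71 (SE 0.15). Rpp14, a subunit of ribonuclease P, read 9.58, 9.04, 8.99 and 8.93 in KO and 9.73, 9.89 and 9.75 in HET. KO 1 lay near the HET arrays, as did WT 12 at 9.63, and the other KO and WT arrays were lower, with a difference of -0.66 (SE 0.17). Pappa, a protease that releases insulin-like growth factor from its binding proteins, read 8.29, 8.33, 8.39 and 8.26 in KO and 8.34, 9.48 and 9.66 in HET. HET 5 lay at the KO level, and WT lay between, at 8.62 to 8.92, with a difference of -0.84 (SE 0.23). Jmy, a p53 cofactor that also nucleates actin, was not well above background on any KO or WT array and detected on all 3 HET arrays, at least 1.14-fold higher in HET (limma adjusted p = 0.657). The measured log2 means were 4.86 in KO and 5.35 in HET, and this bound sets the HET mean against the lowest detected signal of each KO array. Jmy passed the detection filter only through the HET arrays, the group where it is high. Its p, rank and bound follow in part from that selection and are a description. Cd3d, a T cell receptor subunit, was detected on 0 KO and 2 HET arrays and has no fold. Socs7, a suppressor of cytokine signalling, differed by -0.42 (SE 0.11).

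Only 13 genes differed by at least 2-fold between the means (0.117% of those tested), 3 higher and 10 lower in KO. The 3 higher, Psmd8, Uba6 and Prf1, did not overlap, while 9 of the 10 lower did, Piwil2 being the exception. Psmd8, a subunit of the proteasome's regulatory particle, read 9.88, 10.55, 9.68 and 9.70 in KO, 6.14, 9.37 and 5.73 in HET and 9.85, 9.71, 5.90, 6.04 and 9.86 on WT 8 to WT 12. Both a high and a low level appear within HET and within WT, so the mean difference of 2.87 (SE 1.09) rests on how many arrays of a group sat at each. Gfpt1, the first enzyme of the hexosamine pathway, read 5.64, 8.97, 8.99 and 5.49 in KO and 9.77, 8.97 and 9.27 in HET. KO 2 and KO 3 lay with the HET arrays and KO 1 and KO 4 far below, with WT at 5.50, 5.31, 5.71, 8.90 and 5.82 and 1 other probe of opposite sign. Dennd2a, an exchange factor for Rab proteins, read 4.96, 8.35, 9.07 and 4.72 in KO and 9.34, 8.56 and 8.20 in HET, and its KO arrays split the same way. Mxd1, a partner of Max that opposes Myc, read 4.73, 6.49, 6.57 and 4.83 in KO and 7.38, 6.42 and 6.41 in HET, again low on KO 1 and KO 4. Gfpt1, Dennd2a and Mxd1 are annotated to chromosome 6 with Clec12b and Sspn, so 5 of the 13 genes are on that chromosome, which holds 553 of the genes tested. Among KO arrays, Clec12b and Sspn were high on KO 2 only, at 9.99 and 10.28. These lower genes lie outside the naming rule and were chosen after their values were seen.

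**Figure D5:**
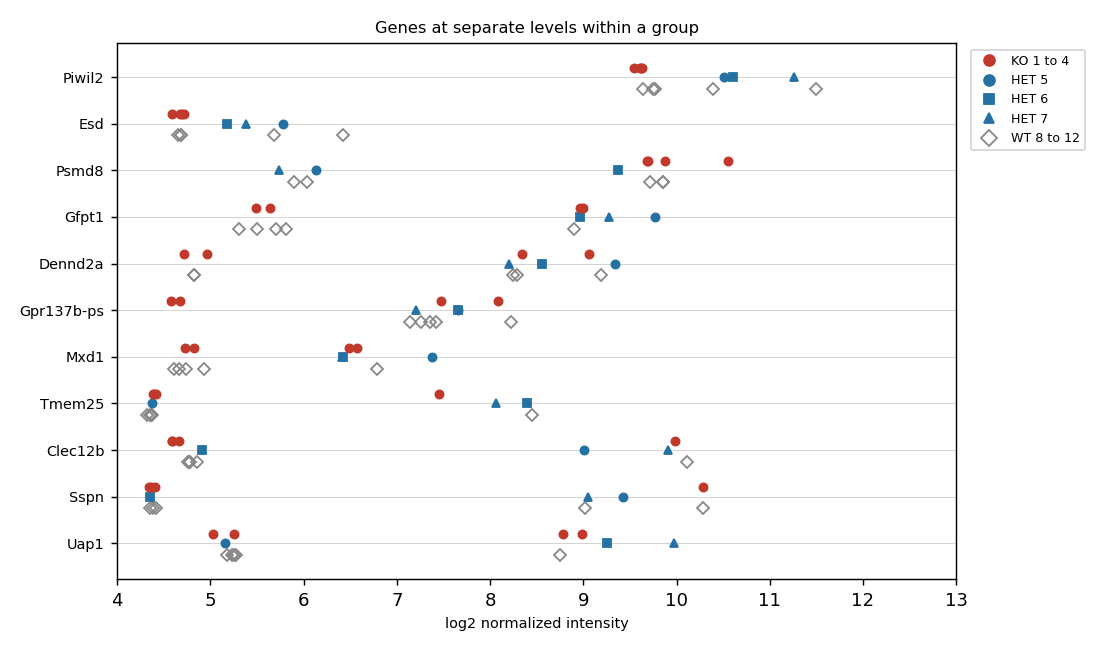
Log2 normalized intensity on each array for 11 genes, most of which lie at separate levels within a group. Red circles are KO arrays, blue symbols the HET arrays (circle HET 5, square HET 6, triangle HET 7) and open grey diamonds the WT arrays. Psmd8 is high on all 4 KO arrays and HET 6 and low on HET 5 and HET 7, and Piwil2 is low on every KO array.

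The surroundings of the targeted gene were examined because KO mice carry 2 floxed copies and SC-Rb+/- mice, as read here, 1. Within 10 Mb of Rb1 on chromosome 14, by the RefSeq gene table, 81 of 131 genes were measured, of which 38 had a higher and 43 a lower mean in KO, with a median of 0.00 at 2 decimals. Arrays did not overlap for 5 that were lower (6.17% against 2.31% over all genes) and 3 that were higher (3.70% against 2.93%). The 5 lower genes were Piwil2, Hr, Bin3, Polr3d and Esd, and the 3 higher Entpd4, Fbxo16 and Zfp395, named here after their values were seen.

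Esd encodes esterase D, long used in human genetics as a marker linked to the retinoblastoma locus. Its probe was not well above background on any KO array, at 4.72, 4.59, 4.69 and 4.67, and detected on all 3 HET arrays, at 5.78, 5.18 and 5.38. HET was thus at least 1.22-fold higher (limma adjusted p = 0.657, measured log2 means 4.67 in KO and 5.45 in HET), and 1 other Esd probe had the opposite sign. Esd was detected on 0 KO, 3 HET and 2 WT arrays, so it passed the detection filter only with the HET arrays, where it is high. Its p, its bound and its place among the lower genes without overlap follow in part from that selection and are a description. WT arrays read 4.65, 4.69, 4.69, 5.69 and 6.42, so that WT 11 and WT 12 lay at the HET level and the other 3 at the KO level. Piwil2, given above, showed the same placement, with WT 11 and WT 12 its highest WT arrays. Hr, a nuclear corepressor named for hairless mice, read 8.63, 8.66, 8.35 and 8.61 in KO and 8.76, 9.33 and 9.38 in HET, with WT 12 high at 9.41. Bin3, a membrane-shaping BAR domain protein, read 5.55, 5.56, 5.47 and 5.69 in KO and 5.84, 5.73 and 6.45 in HET, and WT 12 was again highest in WT, at 6.09. Entpd4, a nucleotide hydrolase, ran the other way, at 11.22, 11.13, 11.16 and 11.14 in KO, 10.91, 10.89 and 10.72 in HET and 11.23, 11.15, 11.20, 10.85 and 10.25 in WT, where WT 11 and WT 12 were the low arrays. Slc25a30, a mitochondrial carrier, lies in the same window and read 7.32, 7.30, 7.60 and 7.89 in KO and 7.69, 8.92 and 8.51 in HET. It overlapped at HET 5 with a difference of -0.84 (SE 0.23).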

How the data were processed

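Total RNA of whole testis was measured on 12 arrays, and the tissue, genotype and array type come from the labels. One deposited table holds, for 45281 probes and per the file headers, the average bead intensity before normalization and a detection p-value. The authors also deposited normalized intensity values, which differ from a quantile normalization of the first table by at most 4.87e-08 percent. Scanner software and normalization steps are not given in the sources used here.

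Intensities were background-corrected with normexp from the detection p-values (offset 16), quantile normalized and put on a log2 scale with neqc of limma 3.58.1 in R 4.3.3. These log2 values were computed here from the deposited intensity. Of these probes 20170 had a detection p below 0.05 on 3 or more arrays and were kept, and each gene was read from its brightest kept probe (11076 genes, 4174 with more than 1 such probe). Gene names came from the platform annotation: 34885 probes have 1 symbol, 18 several and 10378 none, and 34807 matched RefSeq by Entrez ID. A linear model over all 12 arrays gave the KO minus HET contrast, with moderated tests and Benjamini-Hochberg adjustment over all genes, and differences are on the log2 scale. The steps were tested on simulated data.

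Named genes are the 10 higher and 10 lower with the smallest p (no gene passed the adjusted p), the 10 higher and 10 lower with the largest difference without overlap, Rb1, and the 4 members of each of 26 lists with the smallest p, 127 in all. Of 600 list symbols 435 were measured. For 12 named genes another detected probe had the opposite sign. The arrays compared and the lists were chosen with earlier results of these data known. Alternatives changed the background correction, offset, scaling, detection filter, probe rule, arrays in the fit, variance prior, array weights and block, and left out arrays. Figures were drawn with Python 3.11.15 and matplotlib 3.10.9.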

Additional observations from a re-analysis of the deposited data

Results flagged for a closer look

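Within the 4 KO arrays, 153 values were screened for 1 array lying far from the other 3, by the gap over the range against Dixon's 95% critical value for 4 arrays, and 15 passed. Chance flags about 1 in 20. Among the genes higher in KO, Rnf213 was lowest on KO 2 at 5.93 (the other 3 at 6.02 to 6.04) and Pold2 highest on KO 2 at 10.23. Among those lower, Ccdc136 was highest on KO 1 at 6.42, Rpp14 highest on KO 1 at 9.58 (the others at 8.93 to 9.04), and Lgals4, a galectin, lowest on KO 2 at 6.03 (the others at 7.35 to 7.55). Of the network genes, E2f1 was lowest on KO 1 at 9.49 (the others at 9.85 to 9.90), and Tfdp2, a dimer partner of E2F proteins, highest on KO 3 at 8.76. Cxadr, a tight junction protein, was lowest on KO 1 at 8.07, although the others lay at 8.12. Stromal and muscle genes were flagged on KO 3 and KO 4: Tagln lowest on KO 3 at 6.72, Col1a2 lowest on KO 3 at 5.32 and Timp1 highest on KO 4 at 9.08. Hba-a1, an alpha globin, was lowest on KO 4 at 13.20 (the others at 13.72 to 13.79), as was Alas2, an enzyme of heme synthesis, at 6.78 (the others at 7.47 to 7.57). KO 1 stood apart in the list mean of spermatogonial genes, at 0.07, and of cholesterol synthesis genes, at -0.05.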

How the results depend on the processing

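No paired analysis was possible because KO, HET and WT share no replicate number. The count of genes past the adjusted p was 0 under all alternatives except without HET 5. Of the 775 genes at an unadjusted p under 0.05, 62 stayed there without HET 6 and HET 7 and 156 with array weights, which were 0.16 for HET 6 and 0.48 for HET 7 against 1.60 to 1.92 for the KO arrays. The cause of the changes below was not tested. Genes at least 2-fold lower numbered 6 with no background correction, with an offset of 50 and in the authors' values, and 5 under the stricter detection filter. With arrays scaled to the same median, 155 genes were lower at an unadjusted p and 122 lower without overlap, the medians of the checkpoint and peritubular lists were 0.03 and 0.16, and Pkm was 0.01. Without a detection filter, 534 genes were lower at an unadjusted p, and 544 were higher and 534 lower without overlap. Under the stricter filter the medians of the p53, Sertoli maturation, erythroid and epididymis lists were -0.09, -0.08, 0.48 and 0.20. With the mean of a gene's probes the checkpoint median was 0.06 and Mylk 0.03. KO and HET arrays alone gave 309 higher and 169 lower genes at an unadjusted p. Array weights gave 120 higher and 75 lower, 5 at least 2-fold higher, Hbb-b2 at -0.02 and Syce3 at -0.04. The column-number sets as a block gave 6 genes at least 2-fold higher and 16 lower.

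Without HET 6 and HET 7, 118 genes were higher and 149 lower at an unadjusted p, 2018 and 2334 did not overlap with the lone HET array, which is assumed to vary like the other groups, and 15 and 29 differed at least 2-fold. List medians were then 0.05 (Rb and E2F network), 0.04 (E2F targets), 0.03 (checkpoint), 0.04 (Sertoli maturation), 0.02 (immature Sertoli), 0.04 (junctions), -0.17 (spermatogonia), 0.17 (Leydig), -0.01 (peritubular), -0.13 (endothelial), -0.55 (epididymis, fat and muscle) and -0.08 (immediate-early). These 24 named genes changed sign: Aldh1a1 0.02, Bad -0.13, Brdt 0.03, Ccnd1 -0.04, Cst11 -0.10, Dnajb1 0.01, Drd4 0.30, Egfl7 -0.09, Hspa2 0.08, Ifi27 -0.02, Igf1r 0.02, Inha 0.10, Irf9 0.01, Mrc1 0.14, Nes -0.08, Pf4 -0.20, Pkm 0.05, Plvap -0.14, Prc1 0.02, Rb1 0.03, Rbbp7 0.05, Scarb1 0.12, Syce3 -0.15 and Timeless -0.13.

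Leaving out 1 KO or HET array at a time gave 0 to 58 genes past the adjusted p, 288 to 1386 higher and 167 to 795 lower at an unadjusted p, 452 to 1683 higher and 341 to 1234 lower without overlap, and 4 to 33 higher and 9 to 43 lower by at least 2-fold. All the highest counts at an unadjusted p came without HET 5. Medians ran from -0.04 to 0.04 (checkpoint), -0.10 to 0.07 (p53), -0.04 to 0.08 (Sertoli identity), -0.12 to 0.08 (Sertoli maturation), 0.06 to 0.26 (immature Sertoli) and -0.09 to 0.03 (glycolysis). Genes that changed sign ran from -0.14 to 0.45 (Brca2), -0.70 to 0.12 (Brdt), -0.03 to 0.50 (Ccnd1), -0.01 to 0.33 (Egfl7), -0.12 to 0.23 (Hbb-b2), -0.55 to 0.17 (Hspa2), -0.25 to 0.06 (Igf1r), -0.14 to 0.00 (Klf1), -0.19 to 0.03 (Pkm), -0.34 to 0.01 (Scarb1) and -0.36 to 0.97 (Syce3). Dim probes limit what can be seen: Jmy, Cd3d, Esd and Nr5a2 were not well above background on any KO array, and Cdkn1b was on only 1.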
